A study of Mus musculus with 44 samples.

Results

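Genes of CaMKII signalling were followed across the translating mRNA of Emx1-NuTRAP mouse hippocampus: the 4 kinase subunit genes Camk2a, Camk2b, Camk2g and Camk2d, the 2 inhibitor genes Camk2n1 and Camk2n2, and Nrgn, Calm2 and Calm3, which encode neurogranin and calmodulin. They were taken by symbol, through the GENCODE annotation of the GRCm38 build. The rule itself uses no measured value, but the genes were chosen with earlier results of these data known. They were 9 of the 55335 genes in the count table, and all 9 passed the filter on low counts in each of the 7 comparisons.

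The study asked how early-life exercise (ELE) alters translating mRNA of hippocampal neurons. All mice were male progeny of Emx1-IRES-Cre and NuTRAP parents, in which cells that have expressed Cre, and their descendants, tag their ribosomes and their nuclei, and translating ribosome affinity purification (TRAP) pulls down the mRNA bound to the tagged ribosomes. ELE mice had a running wheel in the cage from postnatal day 21 to 41, and sedentary mice spent the same days in cages without one, and tissue was taken the day after. In the simultaneous isolation (SIT), nuclei and mRNA came from 1 lysate of both hippocampi of a mouse (4 ELE and 4 sedentary libraries), and in the separate isolation mRNA came from the left or the right hippocampus alone (3 ELE and 3 sedentary libraries for each side). The study itself compared 3 of the 4 ELE and 2 of the 4 sedentary SIT libraries, and the same 5 were compared here, with all 8 as an alternative. Emx1-Cre acts in progenitors of the dorsal telencephalon, so it marks a lineage, mostly excitatory neurons, and not a single cell type.

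Each library held 45895097 to 65767802 counts. The label calls the cells neurons. The excitatory marker Slc17a7 had a median of 3450 counts-per-million (CPM) over the 20 libraries and the inhibitory marker Gad2 had 6.07 CPM, but the astrocyte marker Gfap (1651 CPM) and the oligodendrocyte marker Mbp (1509 CPM) were high as well. Both sedentary SIT libraries that the study left out stood apart: mitochondrial genes took 8.64 to 9.64% of their counts against 0.0704 to 0.523% in the other 18, and the summed inhibitory markers reached 817 to 854 CPM against 40.5 to 108. Their summed microglial markers (179 to 188 CPM against 2.34 to 9.05) and oligodendrocyte markers (4427 to 5020 CPM against 2312 to 3834) were higher too, so these sums move with the sedentary group in every SIT fit of all 8 libraries. The ELE library left out had 123 CPM of summed striatal markers against 48 to 68 in the 17 libraries compared. The part of these differences in the results was not tested. In such bulk mRNA, fewer cells of a type and less mRNA per cell cannot be told apart.

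CaMKII is a large holoenzyme of several subunits, which calcium-loaded calmodulin switches on by displacing their autoinhibitory segment, and which stays active after the calcium signal ends once the subunits have phosphorylated one another. In the hippocampus it is needed for long-term potentiation and for spatial memory. Calmodulin is shared with calcineurin, other kinases and neurogranin, a small protein of dendrites and spines that holds calmodulin while calcium is low, and the CAMK2N proteins block the active kinase directly.

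In GRCm38, Camk2b, the β subunit gene, lies at chr11:5969644-6066362 on the minus strand. Camk2g lies at chr14:20734875-20794088 (minus) and Camk2d at chr3:126596302-126846326 (plus). The inhibitor gene Camk2n1 lies at chr4:138454314-138460123 (plus) and Camk2n2 at chr16:20619215-20621287 (minus). Nrgn lies at chr9:37544492-37552904, Calm2 at chr17:87433412-87446935 and Calm3 at chr7:16915379-16924114, all on the minus strand. All 9 members are protein-coding genes, and no exon of another annotated gene overlapped theirs.

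Calm2 and Calm3 encode the same protein, so their coding sequences can be told apart only by bases that leave the protein unchanged. Both coding sequences were 447 bases long, 82.6% of the bases were identical, and 74 of the 78 differing bases stood at the third position of a codon. The longest run that the pair shared was 17 bases, well under the 100-base reads of the study, so the counts of the 2 genes could be separated. The 30-base stretch that differed most, bases 184 to 213 of both coding sequences in exon 4 of 6, is shown as an example of how 2 genes for 1 protein can be told apart. Capitals mark its 8 differing bases of the 78, and the counts themselves cover all exons, UTRs included. The first lies at chr17:87435676-87435705 and the second at chr7:16917458-16917487, both on the minus strand.
Calm2: ggCacAattgaTttcccTgaAttTCtgacA
Calm3: ggGacCattgaCttcccAgaGttCTtgacC

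The inhibitor genes were compared in the same way, since they share a near-identical stretch. Coding bases 124 to 153 of Camk2n1 (chr4:138455309-138455338, plus strand, exon 1 of 2) and 127 to 156 of Camk2n2 (chr16:20621039-20621068, minus strand, exon 1 of 2) differed at 1 base, in capitals, and no other aligned 30-base stretch of the 2 coding sequences was more alike. Their longest shared run was 23 bases, again shorter than a read.
Camk2n1: aagcggccTcccaagctgggccagatcggc
Camk2n2: aagcggccCcccaagctgggccagatcggc

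All 9 genes were translated at levels that the depth measured well. The lowest count in any library was 862, for Camk2d, and the highest was 281171, for Nrgn. Together they held 1.23 to 1.76% of the counts of a library. Levels are compared between genes as CPM per kilobase of all annotated exons, since a longer gene yields more reads for the same number of mRNAs. On that scale Nrgn stood first of all genes, with a median of 2633 over the 20 libraries, and Calm3 (1134) and Calm2 (1047) stood 8th and 10th. Nrgn was above Calm3 in 20 of 20 libraries. Calm3 exceeded Calm2 in 13 of 20 only, and with the longest transcript as the length their order turned (1200 for Calm3 and 1274 for Calm2), so these neighbours were not separated.

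Below them came Camk2a with 527 CPM per kilobase, Camk2n1 with 308, Camk2b with 203, Camk2n2 with 124, Camk2g with 26.0 and Camk2d with 1.39. Camk2n1 exceeded Camk2b in 19 of 20 libraries, but the longest transcript reversed that order too (308 and 449.6). The annotated exons of Camk2d sum to 22493 bases against 5524 for its longest transcript, and it stayed lowest on either length (5.67 with the longest transcript). Of the summed kinase subunits per kilobase, Camk2a made up 54.4 to 73.8% (median 70.3%), Camk2b 23.2 to 41.7% (26.2%), Camk2g 2.46 to 4.59% (3.47%) and Camk2d 0.0869 to 0.397% (0.196%). The α and β subunits, which form the forebrain neuronal kinase, thus outnumbered the γ and δ subunits in every library, by mRNA per length. With the longest transcript as the length the median shares were 62.2, 34.0, 3.53 and 0.468%, in the same order, but Camk2a was above Camk2b in 18 of 20 libraries only. In the excluded ELE library and in SIT ELE library 3, Camk2b held the larger share on that length (50.9 against 45.7%, and 50.6 against 45.2%).

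**Figure D1:**
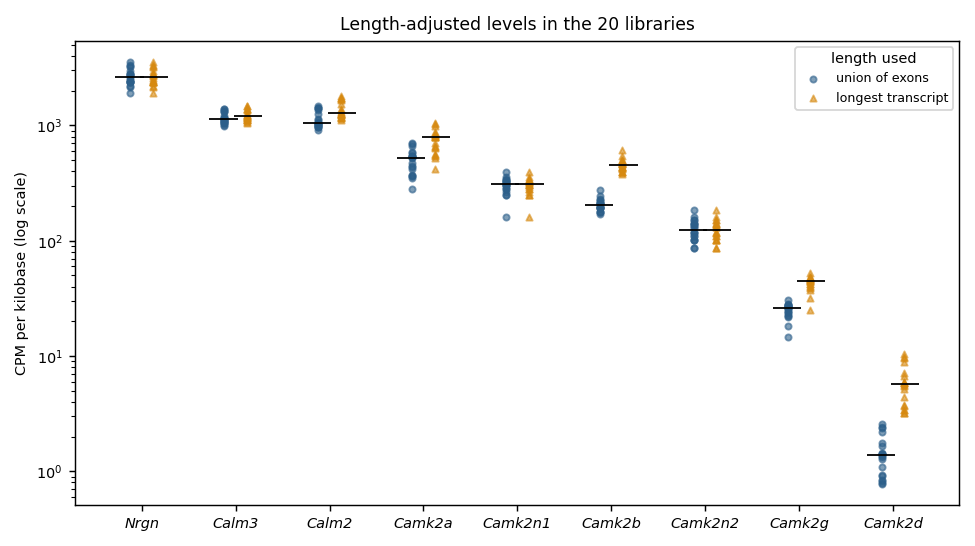
Levels of the 9 genes as CPM per kilobase in the 20 libraries, on a log axis. Circles use the length of all annotated exons, triangles that of the longest transcript, and bars are medians. Nrgn has the highest median (2633) and Camk2d the lowest (1.39 with all exons).

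The first comparison asked what ELE changed in the SIT libraries. Camk2n2 and Camk2d were lower in ELE than in sedentary mice by a rule taken from the study's methods, an unadjusted p under 0.05 with an absolute log2 fold change above 0.39, applied here to edgeR's p where the study used DESeq2. A slightly lower fold threshold, which the study names elsewhere, gave the same number of calls among the 9 genes. The other 7 genes did not pass that rule. Thus 2 of the 9 genes passed, both lower, where 3.65% of all 18238 genes tested did (1.54% higher and 2.11% lower). Since the genes were chosen with earlier results known, this share cannot show that they respond as a set. No gene of the table reached an adjusted p under 0.05 in edgeR's quasi-likelihood test, although 1000 genes had an unadjusted p under 0.05, and DESeq2 made the same 2 of 9 calls by the rule. Without the filter on low counts, edgeR gave an adjusted p of 0.00079 for Camk2d and 0.0098 for Camk2n2, where 105 of 24687 genes (0.425%) had an adjusted p under 0.05. The median log2 fold change was −0.04 over the 9 genes and 0.00 over all genes.

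Camk2n2, one of the inhibitor genes, was at 142, 150.0 and 179 CPM in ELE libraries 1, 3 and 4, and at 239 and 195 CPM in sedentary libraries 1 and 2. All 3 ELE values lay below both sedentary values. Its log2 fold change was −0.47 (SE 0.127, unadjusted p = 0.00418, edgeR adjusted p = 0.905). The exact permutation test over these 5 libraries gave p = 0.2, the smallest it can give, for Camk2n2. Camk2n2 and Camk2b were the 2 of 9 genes whose groups did not overlap, a share near the 22.1% of all genes tested, so the lack of overlap is no result about them.

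In the 3 libraries that the study left out, Camk2n2 was at 132 CPM in the ELE library and at 178 and 195 CPM in the sedentary libraries. The excluded ELE library was lower than the other 3, and the excluded sedentary libraries lay within or just above the ELE range. With all 8 libraries the log2 fold change was −0.41 (SE 0.133, unadjusted p = 0.0108, edgeR adjusted p = 0.460), which passed the rule, as 7.7% of all genes did in that fit. The exact permutation test gave p = 0.0571, against a smallest possible 0.0286. Without sedentary library 1, the highest of all, Camk2n2 no longer passed in the 5 libraries (−0.31, unadjusted p = 0.0807 in edgeR).

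Camk2n1, the inhibitor gene with the higher level, was at 1102, 1366 and 1481 CPM in the ELE libraries and at 1748 and 1435 CPM in the sedentary ones. The groups overlapped, since ELE library 4 exceeded sedentary library 2. Its log2 fold change of −0.27 (SE 0.126, unadjusted p = 0.0550) missed the rule. The excluded ELE library held 718 CPM of Camk2n1, the lowest of the 20 libraries, and the excluded sedentary libraries 1255 and 1583. The log2 fold change was −0.36 (unadjusted p = 0.108 in edgeR) over all 8.

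The groups differed in mouse number as well as in exercise. ELE library 1, the excluded ELE library and sedentary libraries 1 and 2 came from mice numbered NT6, ELE libraries 3 and 4 from mice numbered TG7.4, and the excluded sedentary libraries from mice numbered NT7.2. In the 4 NT6 mice alone, a subset of 2 against 2 chosen after seeing the data, the log2 fold change was −0.66 for Camk2n2 (unadjusted p = 0.00462 in edgeR) and −0.81 for Camk2n1 (unadjusted p = 0.0121), so that both passed the rule, as 6.65% of all genes did. A fit of all 8 libraries with the mouse number as a block (−0.65 and −0.79) is no second result, because TG7.4 mice were all ELE and NT7.2 mice all sedentary, and the ELE effect there comes from the NT6 mice. Both NT6 values rest in part on the excluded ELE library, which was lowest for Camk2n1.

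Camk2d, the δ subunit gene, best known from heart muscle, was at 32.7, 20.5 and 24.3 CPM in ELE libraries 1, 3 and 4, and at 54.2 and 31.9 CPM in sedentary libraries 1 and 2. Sedentary library 1 alone was above every ELE library, and the groups overlapped. Its log2 fold change was −0.74 (SE 0.239, unadjusted p = 0.0113, edgeR adjusted p = 0.905), and the exact permutation test gave p = 0.4 for Camk2d. The call ended without sedentary library 1 (−0.31, unadjusted p = 0.259 in edgeR), without ELE library 3 (−0.59, unadjusted p = 0.0561) and in the NT6 mice alone (−0.41, unadjusted p = 0.174).

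The excluded libraries held 32.0 CPM of Camk2d in the ELE mouse and 57.6 and 53.3 CPM in the sedentary mice. These 2 sedentary values and that of sedentary library 1 were the highest of the 20 libraries. With all 8 libraries the log2 fold change was −0.83 (SE 0.214, unadjusted p = 0.00267, edgeR adjusted p = 0.403), and DESeq2 gave an adjusted p of 0.0339 at −0.84, where 189 of 17435 genes (1.08%) were under 0.05 in DESeq2 and 0 in edgeR. With the mouse number as a block it was −0.40 (unadjusted p = 0.11 in edgeR) and no longer passed, again an estimate from the NT6 mice.

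Camk2b was the one subunit gene whose ELE libraries all lay higher, at 2237, 2519 and 2083 CPM against 1934 and 1915 CPM. Its log2 fold change of 0.24 (SE 0.0865, unadjusted p = 0.0180, edgeR adjusted p = 0.905) was below the fold threshold. The exact permutation test gave p = 0.2 for Camk2b, the smallest possible. The excluded libraries held 1923 CPM (ELE) and 1630 and 1567 CPM (sedentary), so the ELE libraries still tended higher, and over all 8 the log2 fold change was 0.33 (unadjusted p = 0.0225 in edgeR) with an exact p of 0.0571. In the 4 NT6 mice it was 0.11 (unadjusted p = 0.339).

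Camk2a, the α subunit gene, was at 2801, 2712 and 3244 CPM in ELE libraries against 2742 and 2615 CPM in sedentary libraries. The groups overlapped and the log2 fold change was 0.12 (SE 0.0852, unadjusted p = 0.176 in edgeR). With all 8 libraries its sign turned (−0.14), because the excluded libraries held 2083 CPM of Camk2a in the ELE mouse and 3533 and 3159 CPM in the sedentary mice. Camk2g, the γ subunit gene, was at 170, 174 and 146 CPM in ELE against 164 and 173 CPM in sedentary libraries, and its log2 fold change was −0.04.

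Neither Nrgn nor the calmodulin genes passed the rule in SIT. Nrgn was at 4084, 4655 and 5181 CPM in ELE libraries and at 4788 and 4871 CPM in sedentary libraries, so that the ELE values surrounded the sedentary ones. Calm2 was at 1990, 2153 and 2088 CPM against 2064 and 2073 CPM, and Calm3 at 3144, 3368 and 3354 CPM against 3208 and 3214 CPM. Their log2 fold changes were −0.06 for Nrgn, 0.01 for Calm2 and 0.03 for Calm3. In the excluded sedentary libraries all 3 genes were lower than in every other SIT library, at 2760 and 3471 CPM for Nrgn, 1352 and 1651 CPM for Calm2, and 2439 and 2541 CPM for Calm3. With all 8 libraries the log2 fold changes accordingly became 0.19 for Nrgn, 0.19 for Calm2 and 0.14 for Calm3, and none passed the rule. In the 4 NT6 mice alone they had the opposite sign, at −0.25 for Nrgn (unadjusted p = 0.0270 in edgeR, below the fold threshold), −0.11 for Calm2 and −0.15 for Calm3.

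**Figure D2:**
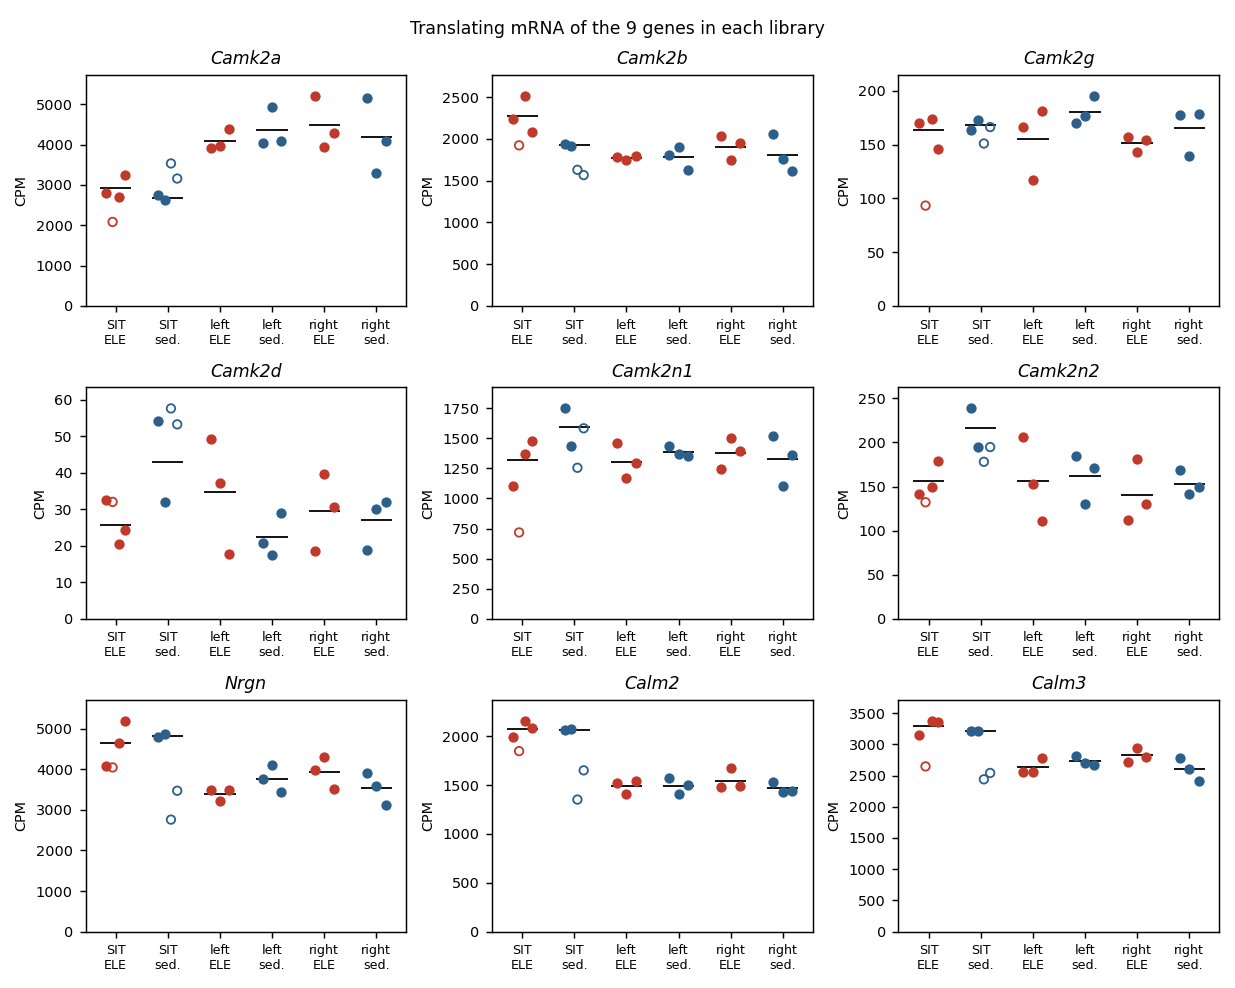
CPM of the 9 genes in each library, 1 panel per gene, by isolation and exercise group (ELE red, sedentary blue). Filled points are the libraries compared, open points the 3 SIT libraries that the study left out, and bars the means of the filled points. The 3 filled ELE points for Camk2n2 in SIT lie below both filled sedentary points, whereas the hemisphere groups overlap for all 9 genes.

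A ratio of 2 genes within a library does not depend on how libraries are scaled. Per count of Camk2a, ELE libraries held 0.0537 ± 0.00265 counts of Camk2n2 (SD, n = 3) and sedentary libraries 0.0808 ± 0.00882 (SD, n = 2), a log2 difference of −0.59. For Camk2n1 the ratios were 0.451 ± 0.0552 (SD, n = 3) and 0.593 ± 0.0630 (SD, n = 2), a log2 difference of −0.40. For neither ratio did the groups overlap, but 5 of the 8 ratios formed did not, the others being Camk2n1 to Camk2n2, Nrgn to Camk2a and Calm2 to Calm3 (log2 differences of 0.19, −0.18 and −0.03). The CPM of 22.1% of all genes did not overlap between these libraries either. The exact permutation p was 0.2 for each of the 5 ratios, the smallest possible, and 0.32 after adjustment over 8 ratios, so none of them was shown to differ. In all 8 libraries the groups overlapped for all 8 ratios, with exact permutation p of 0.114 or more, and the inhibitor ratios differed by −0.26 for Camk2n2 and −0.25 for Camk2n1.

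**Figure D3:**
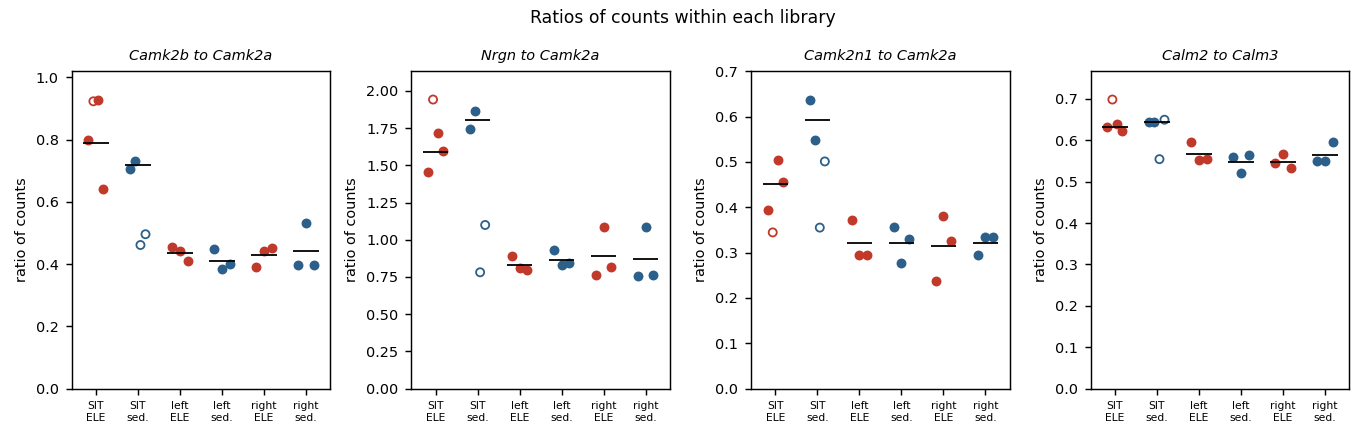
Ratios of counts within a library (Camk2b to Camk2a, Nrgn to Camk2a, Camk2n1 to Camk2a, Calm2 to Calm3) by isolation and exercise group, with points and bars as in the plot of CPM by library. The filled SIT points lie above all points of the separately isolated libraries in each of the 4 panels. For the ratios not drawn the 2 isolations overlapped (Camk2n2 to Camk2a, Camk2n1 to Camk2n2, Camk2d to Camk2g, and Nrgn to Calm2 plus Calm3).

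Summed markers of some cell types did not overlap between the groups in the 5 SIT libraries, where the CPM of 22.1% of all genes did not. The sum of 6 excitatory neuron markers was 4406, 4365 and 4556 CPM in ELE libraries against 4024 and 4084 CPM in sedentary libraries, with no overlap, nor over all 8 (4365 to 5095 against 3623 to 4084 CPM). The sum of 4 endothelial markers was 1.89 to 3.08 CPM in ELE against 3.25 to 3.80 CPM in sedentary libraries, and this did not overlap either. In each group 3 of these 4 genes had a mean under 1 CPM. The sum of Ttr, Kl and Folr1 was 123, 223 and 560 CPM in ELE libraries against 561 and 652 CPM in sedentary libraries, again with no overlap among the 5. The sums of inhibitory, astrocyte, oligodendrocyte, microglial and striatal markers overlapped. The part of these cell types in the differences in Camk2n2 and Camk2d was not tested.

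The next comparisons asked whether ELE altered these genes in a single hippocampus. Hemispheres follow the list of mice given by the study, since the order of the GEO records would give all 12 libraries the other side. Only the names of the sides depend on it. None of the 9 genes passed the rule on the left, where 2.07% of all 17750 genes tested did, nor on the right, where 1.97% did, nor with both sides together and hemisphere as a term (1.97%). ELE and sedentary libraries overlapped for all 9 genes on either side, where groups did not overlap for 10.8% of the genes tested in the left and 7.69% in the right hippocampus. On the left 1 of 9 log2 fold changes was positive and on the right 7 of 9, against 50.9 and 48.7% of all genes. DESeq2 called 0 of the 9 in each of these fits as well. On the left, the summed oligodendrocyte markers were lower in ELE (2843 to 3066 CPM) than in sedentary libraries (3141 to 3656 CPM), with no overlap, and excitatory markers overlapped on both sides.

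For Camk2n2 the left libraries read 206, 153 and 111 CPM in ELE and 185, 130 and 171 CPM in sedentary mice. The right libraries read 112, 181 and 130 CPM in ELE and 169, 142 and 150 CPM in sedentary mice. ELE libraries were both the highest and the lowest on each side, with log2 fold changes of −0.05 on the left and −0.12 on the right. Camk2n1 ranged from 1106 to 1518 CPM over the 12 libraries, with log2 fold changes of −0.09 and 0.06.

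The main subunit genes and the calmodulin genes overlapped between ELE and sedentary mice in a single hippocampus. Camk2a was at 3920, 3967 and 4389 CPM in left ELE and 4035, 4936 and 4081 CPM in left sedentary libraries, with a log2 fold change of −0.09 (SD 258 and 507 CPM, n = 3 each). On the right it was at 5216, 3953 and 4300 CPM in ELE and 5161, 3302 and 4082 CPM in sedentary libraries, with a log2 fold change of 0.10. The first library of either right group, both from mice numbered TG7.3, was the highest of its group for Camk2a. Camk2b was at 1747 to 1798 CPM in left ELE and 1631 to 1903 CPM in left sedentary libraries, and at 1744 to 2033 and 1621 to 2054 CPM on the right (log2 fold changes −0.01 and 0.08). Camk2g was at 117 to 181 CPM in left ELE and 170 to 196 CPM in left sedentary libraries, and at 143 to 157 and 140 to 179 CPM on the right. Its log2 fold change was negative on both sides (−0.23 and −0.12) and −0.17 over both (unadjusted p = 0.0944 in edgeR), which did not pass. Calm3 was at 2557 to 2783 CPM in left ELE and 2671 to 2809 CPM in left sedentary libraries, and at 2713 to 2947 and 2414 to 2785 CPM on the right. Over both sides, the log2 fold changes of the 7 genes other than Camk2d and Camk2g ran from −0.086 (Camk2n2) to 0.035 (Camk2b and Calm2).

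For Camk2d the left libraries read 49.3, 37.2 and 17.7 CPM in ELE and 20.9, 17.6 and 28.9 CPM in sedentary mice. ELE libraries 1 and 2 were above every sedentary one and library 3 was near the lowest. The log2 fold change was 0.63 (SE 0.338, unadjusted p = 0.0989 in edgeR), the opposite sign to SIT. On the right they read 18.6, 39.6 and 30.8 CPM against 18.8, 30.1 and 31.9 CPM, a log2 fold change of 0.14 with the groups interleaved. Over both sides the log2 fold change was 0.38 (unadjusted p = 0.137), and it passed the rule without left ELE library 3 (0.50, unadjusted p = 0.0403 in edgeR) or without right ELE library 1 (0.52, unadjusted p = 0.0406). On the left alone, Camk2d passed without left ELE library 3 (0.94, unadjusted p = 0.00315 in edgeR) and without the filter on low counts (0.63, unadjusted p = 0.0265).

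The difference between the SIT and the separate effect of ELE was tested for the 9 genes in a model chosen after seeing the data, over the 17 libraries. Camk2d alone passed, with a lower ELE effect in SIT (log2 difference −1.12, SE 0.434, unadjusted p = 0.0187, edgeR adjusted p = 0.941), where 4.26% of all genes passed. With all 20 libraries the difference for Camk2d was −1.21 (SE 0.371, unadjusted p = 0.00382, adjusted p = 0.350), where 7.4% of all genes passed. For Camk2n2 the difference was −0.38 (SE 0.249, unadjusted p = 0.145 in edgeR), so its effects in the 2 isolations were not shown to differ.

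Of the 9 genes, Nrgn had the lowest p for a difference between the hemispheres in the effect of ELE. Left libraries held 3489, 3219 and 3486 CPM in ELE and 3752, 4094 and 3434 CPM in sedentary mice. Right libraries held 3986, 4294 and 3513 CPM in ELE and 3900, 3584 and 3128 CPM in sedentary mice. ELE libraries tended lower on the left (log2 fold change −0.15) and higher on the right (0.15), with overlap on both sides. The interaction of exercise with hemisphere was −0.30 (SE 0.136, unadjusted p = 0.0432, edgeR adjusted p = 1.0), below the fold threshold, and none of the 9 genes passed the rule for the interaction, as 2.2% of all genes did. Leaving out 1 library at a time moved the Nrgn interaction from −0.38 to −0.22.

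Left and right hippocampus differed little in these genes. With exercise as a term, the log2 difference of left from right ran from −0.06 to 0.11 over the 9 genes, and none passed the rule, as 1.14% of all genes did. Camk2a ranged from 3920 to 4936 CPM on the left and from 3302 to 5216 CPM on the right, and Calm2 from 1409 to 1572 CPM on the left and from 1431 to 1670 CPM on the right.

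**Figure D4:**
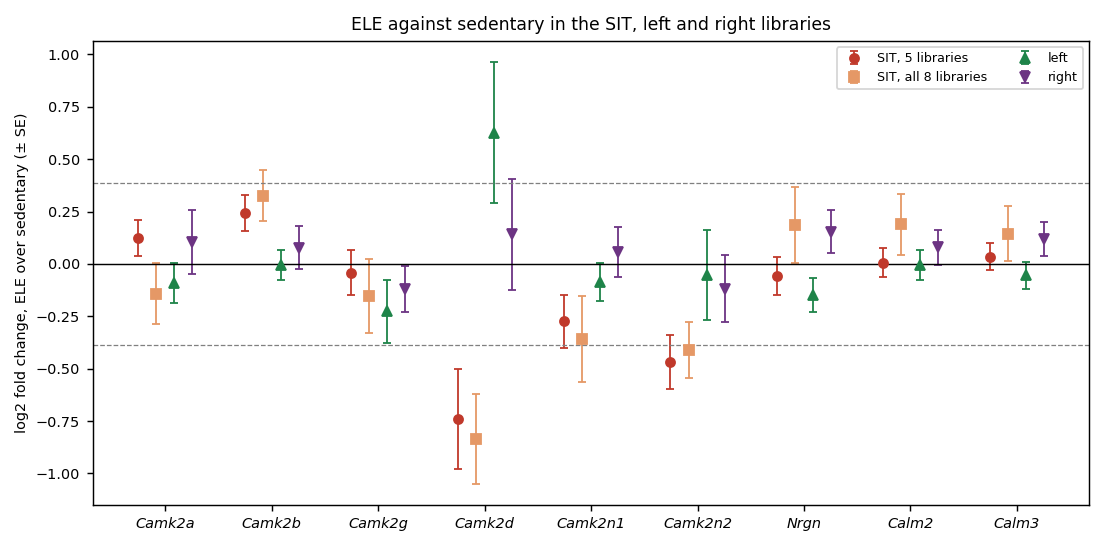
Log2 fold change in ELE relative to sedentary mice (bars are SE) for the 9 genes in the 5 SIT libraries compared, all 8 SIT libraries, and the left and right hippocampus, with the fold threshold dashed. Camk2n2 and Camk2d lie below the lower threshold in both SIT fits (−0.47 and −0.74 in the 5 libraries), and the left and right values of Camk2n2 lie near 0.

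The last comparison set SIT against separate isolation, and the lowest adjusted p-values of these genes in edgeR's fits by isolation, exercise and hemisphere were found there. With exercise as a term, Camk2a was lower in SIT and Calm2 was higher by the rule, 2 of the 9 genes where 14.4% of all 18843 genes passed (4.89% higher and 9.52% lower). At an adjusted p under 0.05, 5 of 9 passed, namely Camk2a lower and Camk2b, Nrgn, Calm2 and Calm3 higher, where 25.5% of all genes did. Method, amount of tissue and mouse number cannot be told apart in this comparison, because all SIT mice carried other mouse numbers than the separately isolated mice.

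Camk2a, at chr18:60925618-60988152 on the plus strand, ranged from 2615 to 3244 CPM (median 2742) in the 5 SIT libraries and from 3302 to 5216 CPM (median 4082) in the 12 separate ones. Every SIT library was below every separate library, as for 4.1% of all genes, and the log2 fold change was −0.60 (SE 0.0868, edgeR adjusted p = 3.61e-05). The exact permutation test within exercise groups gave p = 0.00085 for Camk2a, the smallest it can give. With the 3 excluded libraries the SIT range was 2083 to 3533 CPM, which overlapped, and the log2 fold change was −0.59.

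Calm2 ranged from 1990 to 2153 CPM (median 2073) in SIT against 1409 to 1670 CPM (median 1498), with every SIT library above, as for 3.47% of all genes. Its log2 fold change was 0.47 (SE 0.0407, edgeR adjusted p = 1.22e-07), and the exact permutation p was again 0.00085, the smallest possible. Calm3, which makes the same protein, was also higher in every SIT library (3144 to 3368 CPM against 2414 to 2947 CPM), by a smaller log2 fold change of 0.27 (SE 0.0420, adjusted p = 6.99e-05 in edgeR). Per count of Calm3 there were 0.623 to 0.645 counts of Calm2 in SIT and 0.521 to 0.597 in the separate libraries, again with no overlap.

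Nrgn ranged from 4084 to 5181 CPM in SIT against 3128 to 4294 CPM. The groups overlapped, with SIT ELE library 1 alone below the highest separate library. The log2 fold change of Nrgn was 0.37 (SE 0.0667, edgeR adjusted p = 0.000325) and that of Camk2b was 0.22 (SE 0.0616, adjusted p = 0.0101). Per count of Camk2a there were 1.46 to 1.86 counts of Nrgn in SIT and 0.756 to 1.09 in the separate libraries, and 0.642 to 0.929 counts of Camk2b against 0.386 to 0.533. The inhibitor genes and the minor subunits did not pass, with log2 fold changes of 0.25 for Camk2n2, 0.09 for Camk2n1, 0.21 for Camk2d and 0.04 for Camk2g.

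Several of these calls rested on leaving out the excluded libraries. With all 8 SIT libraries Calm2 was still higher at the adjusted p, by 0.34 on the log2 scale (edgeR adjusted p = 0.00076), but missed the fold threshold. Calm3 (0.15, adjusted p = 0.0973), Nrgn (0.21, adjusted p = 0.124) and Camk2b (0.11, adjusted p = 0.296) no longer passed at the adjusted p. Both excluded sedentary libraries were below the median of the separate libraries for Calm3, Nrgn and Camk2b. Mitochondrial genes also separated the methods, at 0.245 to 0.523% of counts in the 5 SIT libraries and 0.0704 to 0.122% in the separate ones. Summed excitatory markers overlapped (4024 to 4556 against 4084 to 5388 CPM), as did astrocyte markers (1840 to 3371 against 2455 to 5288 CPM) and oligodendrocyte markers (2593 to 3817 against 2312 to 3834 CPM). The part of mitochondrial reads or glia in these differences was not tested.

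Lists of genes around CaMKII were counted by the same rule, which 3.65% of all genes passed in the 5 SIT libraries. In SIT, 1 of 8 other calmodulin-dependent kinases was lower in ELE, Pnck (log2 fold change −0.50, SE 0.142, unadjusted p = 0.00553 in edgeR), a kinase of the CaMKI family. Of 8 other calmodulin and calcium-binding or calmodulin-binding small proteins, 1 was lower, Gap43 (−0.46, SE 0.108, unadjusted p = 0.00166), an axonal growth protein that, like neurogranin, binds calmodulin. None of 7 genes of calcineurin and its regulators passed (lowest p for Rcan3, −0.36, unadjusted p = 0.0252), nor of 8 phosphatase genes that act on CaMKII (Ppm1e, 0.28, unadjusted p = 0.0539). Of 10 anchors and substrates of CaMKII in the postsynaptic density none passed, with the lowest p for the AMPA receptor subunit gene Gria1 (0.20, unadjusted p = 0.0269 in edgeR). In the 5 libraries 8 of these 10 had a positive sign, against 50.2% of all genes. With all 8 SIT libraries 4 of the 10 were positive, against 50.7% of all genes. With all 8 SIT libraries, where 7.7% of all genes passed, Gap43 was again lower (−0.41, unadjusted p = 0.0110), Pnck did not pass (−0.43, unadjusted p = 0.130), Rcan3 was lower (−0.62, unadjusted p = 0.00166), and Camkk1 (0.55, unadjusted p = 0.0204) and Ppp1r1a (0.51, unadjusted p = 0.0247) were higher. Adjusted p was 0.403 or more for all of them in both fits.

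In the hemispheres none of the listed genes passed by edgeR, on the left, on the right or over both. The lowest p values were for Lrrc7, which encodes densin, on the left (0.35, unadjusted p = 0.0216 in edgeR), for the calcium sensor gene Hpca on the right (0.33, unadjusted p = 0.00726), and for the CaM kinase kinase gene Camkk2 over both (0.25, unadjusted p = 0.0381). Between the isolations, 14.4% of all genes passed the rule and 49.0% were positive in SIT. Of the 8 other small calcium or calmodulin binding genes 8 were positive, with a median log2 fold change of 0.37 against −0.01 over all genes, and 3 passed, Vsnl1 (0.60), Pcp4 (0.49) and Gap43 (0.42). Of the 10 anchors and substrates 9 were negative, with a median of −0.18, and 3 passed as lower, as 9.52% of all genes did, Shank3 (−1.27), Grin2b (−0.60) and Grin2a (−0.39). Pnck (0.45) and the calcineurin regulatory subunit gene Ppp3r1 (0.54) were higher, and of the phosphatase genes Ppp1cb was higher (0.45) and Ppp1r9b lower (−0.59).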

How the data were processed

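Per the labels and the methods of the study, stranded libraries (100-base paired reads) were checked with FastQC 0.11.9, aligned with STAR 2.7.3a, stripped of duplicates with Picard 1.87 and counted per gene in R 4.1.0, and the authors deposited the raw count of each gene. Columns carry mouse numbers, so groups and hemispheres follow the list of mice given by the study. The 5 SIT libraries it compared were identified because their means matched 633 of 633 genes in its list. The 24 columns of a wild-type table were not used. Of 55335 identifiers, 55154 matched GENCODE.

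The count of each gene was fitted with edgeR 4.0.16 in R 4.3.3 (TMM, filterByExpr, quasi-likelihood test) over all genes in each comparison, with Benjamini-Hochberg adjustment, and with DESeq2 1.42.0 as an alternative. CPM used TMM over the 20 libraries. Exact permutation tests were two-sided, on log2(CPM + 0.5). The fits were checked on simulated data. Libraries with the first part of the mouse number in common deviated together on the left (correlation 0.119 to 0.37) but not on the right (−0.111 to 0.403) or in SIT (−0.143 to 0.00457). P-values measure the spread between mice. All 9 members were named, with, of the lists, the genes past the rule or else those of lowest p. Members and lists were chosen with earlier results of these data known.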

Additional observations from a re-analysis of the deposited data

Results flagged for a closer look

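In sedentary SIT mice, Camk2d of library 2 (31.9 CPM) stood below the other 3 libraries (53.3 to 57.6 CPM), and this gap took up 0.83 of the range of the 4. Those 3 include the 2 libraries that the study left out. The ratio of Calm2 to Calm3 in the same group was lowest in library 3, one of those left out (0.554), with a gap of 0.934 of the range. Of 34 groups of 4 values checked, 2 stood out in this way, and chance gives about 1 in 20.

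The ELE effect on Nrgn differed between left and right by −0.30 on the log2 scale (unadjusted p = 0.0432, edgeR adjusted p = 1.0). The ELE effect on Camk2d differed between SIT and separate isolation by −1.12 on the log2 scale (unadjusted p = 0.0187, edgeR adjusted p = 0.941), in a model chosen after seeing the data.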

How the results depend on the processing

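Of 972 alternative values of the members' fold changes, 879 kept their direction and side of the rule, 77 changed sign, 10 came to pass the rule and 6 ceased to. The 972 include the lower fold threshold, which reuses the main fits, so the fold changes and p-values there could not move. Members called in SIT (2) ranged from 0 to 3 with 1 library left out: 0 without sedentary library 1, 1 without ELE library 3, and 3 without sedentary library 2, where Camk2n1 was added (−0.41, unadjusted p = 0.0180 in edgeR). Members called were 1 on the left without the filter, 0 to 1 with 1 library left out on the left or over both sides, and 1 between isolations with all 8 SIT libraries. Calls over all genes in SIT (665) were 355 to 1086 with 1 library left out, 1350 with all 8 libraries (1350 with median-of-ratios factors, 1570 with DESeq2) and 1179 in the NT6 mice. In the other comparisons the count with the filter is given first, then that without it. The range with 1 library left out, filter kept, comes last. They were 367, 691 and 220 to 945 on the left, and 347, 715 and 308 to 643 on the right. Over both sides they were 360, 961 and 294 to 589, and for the interaction 414, 1041 and 354 to 718. For left against right they were 208, 663 and 194 to 437. Between isolations there were 2716 with the filter and 4215 without it.

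Signs turned in SIT with all 8 libraries for Camk2a (−0.14 by TMM, median-of-ratios factors and DESeq2) and Nrgn (0.19 by each), and in the NT6 mice for Camk2a (−0.13), Calm2 (−0.11) and Calm3 (−0.15). With the 5 SIT libraries added, Nrgn over both sides was −0.013. Between isolations with all 8 SIT libraries, Camk2g was −0.079 and Camk2n1 −0.027. Leaving out 1 library gave, in SIT, −0.084 to 0.032 for Camk2g, −0.15 to 0.025 for Nrgn and −0.018 to 0.035 for Calm2. On the left it gave −0.15 to 0.0086 for Camk2a, −0.063 to 0.045 for Camk2b, −0.30 to 0.15 for Camk2n2 and −0.047 to 0.031 for Calm2. On the right it gave −0.046 to 0.28 for Camk2a, −0.12 to 0.39 for Camk2d, −0.065 to 0.16 for Camk2n1 and −0.34 to 0.021 for Camk2n2. Over both sides it gave −0.068 to 0.075 for Camk2a, −0.0009 to 0.076 for Camk2b, −0.074 to 0.026 for Camk2n1 and −0.050 to 0.048 for Nrgn. For the interaction it gave −0.24 to 0.058 for Camk2g and −0.18 to 0.28 for Camk2n2. For left against right it gave −0.12 to 0.027 for Camk2a, −0.20 to 0.10 for Camk2d, −0.071 to 0.028 for Camk2n1, −0.034 to 0.018 for Calm2 and −0.049 to 0.0075 for Calm3. Between isolations it gave −0.092 to 0.36 for Camk2d. The cause of these changes was not tested, and none of the values that turned had passed the rule.

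With the mouse number as a replicate block, 0 members were called on the left, on the right and over both (340, 326 and 446 of all genes), and 2 over all 8 SIT libraries (1619 of all genes), where Camk2n1 took the place of Camk2d and signs turned for Camk2a (−0.12), Calm2 (−0.093) and Calm3 (−0.13). The numbers are not shown to mark litters.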

Other observations

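For each member, the 2 genes whose log2 CPM varied most alike over the 20 libraries, centred within SIT, left and right, are given by Pearson's r among 9595 genes of at least 10 CPM, as a description. For Camk2a they were Cntnap1 (0.863) and Rph3a (0.854), for Camk2b Kbtbd11 (0.882) and Nsf (0.878), for Camk2g Ptprk (0.942) and Fbxo3 (0.941), and for Camk2d Gng4 (0.889) and Dpp10 (0.823). For Camk2n1 they were Kifc2 (0.916) and Pknox2 (0.889), and for Camk2n2 Fxyd6 (0.866) and Hpcal1 (0.84). For Nrgn they were Dhrs7b (0.948) and H1fx (0.931), for Calm2 Sumo2 (0.953) and Polr2e (0.949), and for Calm3 Arhgef25 (0.933) and Olfm1 (0.924). The libraries share their scaling, and 3 of them stood apart. Without those 3, 1 of these 18 genes was still among the nearest 2 of its member, Sumo2 for Calm2 (0.871). Among the members themselves, in the 17 libraries, Calm2 and Calm3 were at 0.73, Nrgn and Calm3 at 0.718, Camk2n1 and Camk2n2 at 0.666, Camk2d and Camk2n2 at 0.644, and Camk2b and Camk2d at −0.612.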
